A study of Azumapecten farreri with 9 samples.

Results

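The response described here is the part that 2 exosome injections had in common in hemocytes, the circulating immune cells of the Zhikong scallop (Azumapecten farreri, also Chlamys farreri). It was read from 9 RNA libraries: 3 titled LPS_T and 3 titled NOR_T, from scallops injected with exosomes, and 3 titled PBS, from scallops injected with phosphate-buffered saline, the liquid without exosomes. The mean of the LPS_T and NOR_T groups, with equal weight, was set against PBS. A gene was counted as shared when that mean contrast had an adjusted p under 0.05, when both groups moved the same way against PBS, and when the smaller of the 2 log2 changes was at least 0.6 of the larger. Of 21617 genes in the table, 11678 reached at least 1 FPKM (the fragments of a gene scaled by its length and by library size) in at least 3 libraries and were tested, and 1799 of these were shared.

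For the exosome libraries the sample title and the group label disagree: LPS_T libraries bear the label "Normal exosomes", and NOR_T libraries bear "LPS stimulating exosomes". Groups are therefore called by their titles, and nothing is said on which of them received exosomes linked to LPS, the lipopolysaccharide of bacterial walls. The mean contrast does not depend on that choice. Dose, time after injection and the age of the scallops are not given here, nor is it stated whether replicate libraries hold different scallops, so p-values measure the spread between libraries, which may be technical.

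Exosomes are small vesicles that cells release, and they carry proteins, RNA and lipids that other cells can take up. Bivalves have no antibodies, and their hemocytes take up particles, spread and migrate on actin filaments, release proteases and reactive oxygen, and carry families of apoptosis regulators that are larger than those of vertebrates. New actin and tubulin are folded by a ring-shaped cytosolic chaperonin, and many kinases and receptors depend on the HSP90 chaperone, which works in a cycle driven by co-chaperones.

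Library totals ran from 40217497 to 42116106 counts in 4 of the exosome libraries, with 32318310 and 36688559 in NOR_T 2 and 3, against 19894628, 40149519 and 45831950 in PBS 1, 2 and 3. PBS 1 stood apart: 2 genes took 17.8% of its counts, against 0.0318% to 0.0979% in the other 8 libraries. Values below are therefore CPM, counts divided by library size after TMM scaling (which sets the bulk of genes to a common level), except where FPKM is named. CPM compares a gene between libraries, not genes with each other. FPKM is not TMM-scaled, so those 2 genes can lower the other FPKM values of PBS 1 and the low end of a PBS range. Hemocyte marker descriptions were checked first. An allograft inflammatory factor 1-like gene, named for a calcium-binding protein of macrophages, had 3560 to 3710 FPKM in LPS_T, 4740 to 4840 FPKM in NOR_T and 3030 to 4170 FPKM in PBS libraries. Hemocytin, a clotting-type protein of insect hemocytes, was at 0.0664 FPKM or less in all 9 libraries. The 115 genes with ciliated-epithelium descriptions summed to 730 to 741 FPKM in LPS_T, 306 to 325 FPKM in NOR_T and 306 to 556 FPKM in PBS libraries, and of 92 tested 2 were shared in each direction. The 62 gonad and gamete genes summed to 1760 to 1870 FPKM in LPS_T, 1190 to 1270 FPKM in NOR_T and 1060 to 1500 FPKM in PBS libraries, with 1 of 48 tested shared in each direction. Muscle genes (52) summed to 6250 to 6630 FPKM in LPS_T, 6270 to 6700 FPKM in NOR_T and 4420 to 6610 FPKM in PBS, and of 36 tested 4 were shared and higher and 3 shared and lower, counts that single libraries moved to between 3 and 7 higher and between 1 and 3 lower. The part of these cell types in the results was not tested. In such bulk RNA, fewer cells of a type and less RNA per cell cannot be told apart.

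In the mean contrast 3449 genes, or 29.5% of those tested, were called at an adjusted p under 0.05 (edgeR's quasi-likelihood test). Of these 1702 were higher with exosomes (14.6% of genes tested) and 1747 were lower (15%). Both groups moved the same way in 3269 of the called genes and opposite ways in 180. Among the 3269, the amounts were unequal by the limit of 0.6 in 1470, with the larger change in LPS_T for 1051 and in NOR_T for 419. The remaining 1799 shared genes comprised 940 higher (8.05% of genes tested) and 859 lower (7.36%). Counts of shared list members below are to be read beside these shares. Of the 1799 shared genes, 1283 were also called against PBS in each exosome group alone, 678 higher and 605 lower. The others were shared by the mean contrast but were not called in at least 1 of the groups. Both changes of a gene are measured against the same PBS libraries, so their likeness is fixed in part by that and is not a finding.

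Most shared changes were small. The median absolute log2 change was 0.55 for the shared genes that were higher and 0.60 for those that were lower. A change of at least 2-fold was reached by 347 shared genes, 150 higher and 197 lower, out of 615 genes called at that size. Of these 347, 295 were called in each exosome group alone. LPS_T and NOR_T were themselves called different in 114 of the 1799, against 2509 of all genes tested (21.5%), a gap that the limit of 0.6 sets in part. The 95% interval of LPS_T minus NOR_T lay within 1 log2 unit of 0 for 1640 of the 1799. The limit of 0.6 and the small size of most changes set that count in part. Of the 347 shared genes changed at least 2-fold, 201 had such an interval. FPKM ranges of the 6 exosome and the 3 PBS libraries did not overlap in 1160 shared genes, and in 1976 of all genes tested (16.9%). The genes named below for the size of their change had to have such ranges, so their separation from PBS was fixed by the choice. Shared genes were expressed at a median of 9.13 FPKM (higher) and 10.0 FPKM (lower), against 5.02 FPKM over all genes tested. Without PBS 1, 1599 genes were shared, and 1365 of the 1799 and 305 of the 347 were among them.

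**Figure D1:**
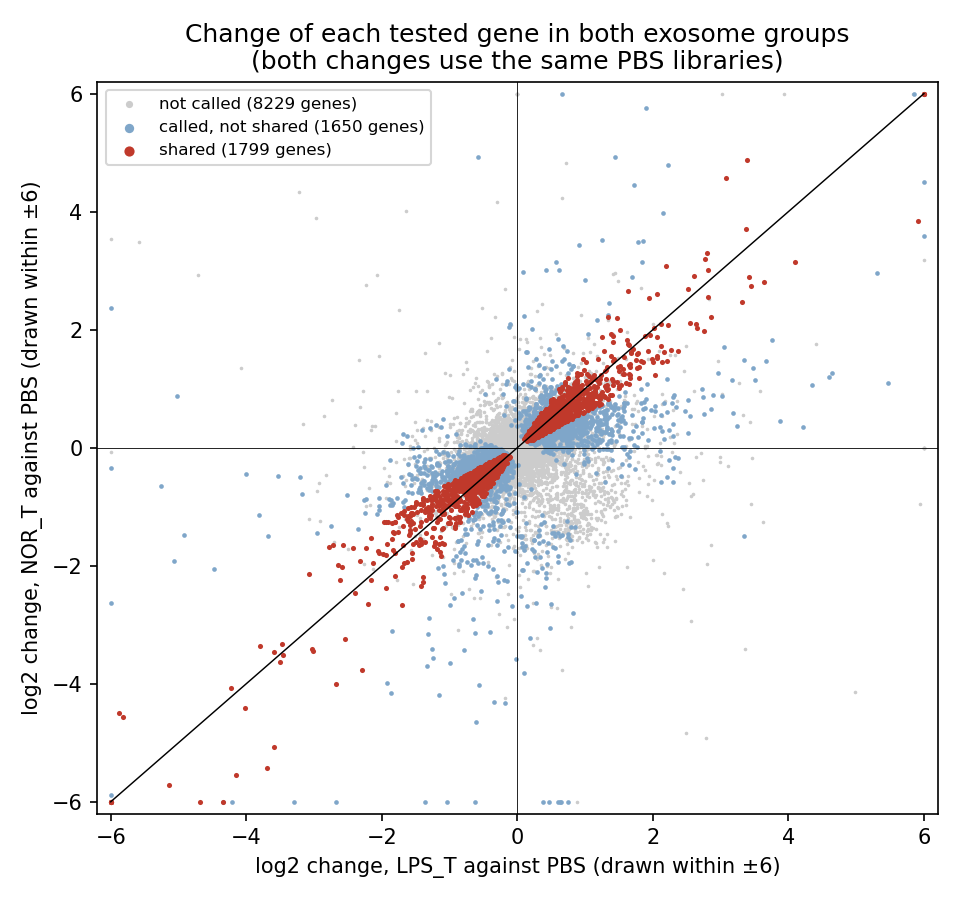
Each point is 1 tested gene, with its log2 change in LPS_T against PBS on the horizontal axis and in NOR_T against PBS on the vertical axis. The diagonal marks equal changes and values beyond 6 are drawn at the edge. The 1799 shared genes (red) lie in 2 wedges around the diagonal, which is how they were chosen, and the 8229 genes not called (grey) make up the rest with 1650 genes called but not shared.

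Parts of the folding machinery of the cytosol were lower with both exosome injections. All 8 subunits of the cytosolic chaperonin, the T-complex, were shared and lower, with log2 changes of -1.53 (zeta) to -1.16 (epsilon), and a median of -1.33 against 0.0043 over all genes tested. The zeta subunit had 148, 149 and 129 CPM in LPS_T and 205, 214 and 204 in NOR_T libraries, against 539.8, 470.4 and 475 in PBS libraries. The epsilon subunit had 249, 252 and 229.7 in LPS_T and 273, 299 and 270.3 in NOR_T, against 615, 569 and 570.2 in PBS. In these, as in the other 6 subunits, every exosome library was below every PBS library, and every LPS_T library was below every NOR_T library. The size was thus similar but not equal: all 8 subunits were also called lower in LPS_T than in NOR_T, with differences of -0.59 (theta) to -0.20 (epsilon) on the log2 scale.

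Many co-chaperones of HSP90, some of which also bind HSP70, were lower too. In a list of HSP90 co-chaperones and of the R2TP complex, which brings HSP90 to large assemblies, 12 of 16 tested members were shared and lower and 1 was shared and higher. This list was drawn up after the values had been seen. Its median was -1.09. Stress-induced phosphoprotein 1, the adaptor that links HSP70 to HSP90, had 156, 151 and 147 CPM in LPS_T and 174, 176 and 171 in NOR_T, against 443, 457 and 463 in PBS. That is a log2 change of -1.49 ± 0.04 (SE; 6 exosome and 3 PBS libraries; adjusted p = 1.23e-12). FKBP4-like, a prolyl isomerase that binds HSP90, had 49.9, 52.2 and 53.9 in LPS_T and 59.7, 63.8 and 64.3 in NOR_T, against 156, 155 and 154 in PBS (-1.45 ± 0.05). Both genes had exosome libraries that stayed well below all PBS libraries.

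Further members fell to a similar degree. The Hsc70-interacting protein, which steadies HSP70 on its client, had 75.2, 77.3 and 70.0 CPM in LPS_T and 102, 104 and 105 in NOR_T, against 203, 194 and 206 in PBS. The HSP90 ATPase activator (-1.20), the p23-like prostaglandin E synthase 3 (-1.16), which holds HSP90 in its closed form, the SGT1-like suppressor of G2 allele of SKP1 (-1.23), CHORD-domain protein 1 (-1.16) and nudC-like (-1.19) fell by at least 2-fold. The kinase adaptor Cdc37-like fell by less (-0.59), and the AAA+ ATPases ruvB-like 1 and ruvB-like 2 of R2TP fell by 0.84 and 1.02 on the log2 scale. WD repeat-containing protein 92, a partner of R2TP, changed by -1.01. The exception was unc-45-like A, a myosin chaperone that also binds HSP90: it had 27.1, 29.0 and 30.5 in LPS_T and 29.0, 32.0 and 31.0 in NOR_T, against 21.8, 24.4 and 25.5 in PBS (0.31 ± 0.09, adjusted p = 0.0154). Its call was lost without PBS 1 (adjusted p = 0.0661, edgeR).

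The wider list of cytosolic HSP70, HSP90 and their co-chaperones was divided. Of its 49 tested members, 12 were called higher and 12 lower, and 3 and 7 were shared (5 and 8 without PBS 1). The list includes co-chaperones, so its counts do not describe the HSP70 and HSP90 genes alone. The nucleotide exchange factor HSP70-4-like had 306, 311 and 306 in LPS_T and 331, 332 and 326 in NOR_T, against 733, 767 and 761 in PBS. A 12A-like HSP70, from a divergent branch of the family, was higher: 39.5, 45.5 and 44.2 in LPS_T and 43.4, 43.2 and 41.7 in NOR_T, against 22.0, 32.2 and 31.7 in PBS (0.57 ± 0.11). Neither gene had exosome libraries within the PBS range. Near-identical copies in this family, in the actins and in the tubulins may share reads, so the split between copies is uncertain.

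In mitochondria, the HSP60 barrel and its lid HSP10 form the matching chaperonin. A list of 8 mitochondrial chaperones, also drawn up after the values were seen, had 6 called lower and 4 of them shared. HSP10-like had 48.2, 43.3 and 39.8 CPM in LPS_T and 58.9, 66.8 and 56.4 in NOR_T, against 108, 112 and 101 in PBS (-1.05 ± 0.07). Its neighbour on the same scaffold and 2 further gene models described as HSP60 changed by -1.06, -1.06 and -1.05. All exosome libraries of these 4 genes were below all PBS libraries. The mitochondrial HSP75 and stress-70 genes were called lower without reaching the limit for a similar amount.

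Among clients and cofactors of the chaperonin, tubulins and folding cofactors were only partly lower. Actins, which are also clients, are given below with their regulators, a list more often higher than lower. Tubulin-folding cofactor B, which handles alpha-tubulin, had 40.5, 40.1 and 45.9 in LPS_T and 56.5, 55.3 and 51.9 in NOR_T, against 136, 128 and 125 in PBS (-1.43 ± 0.06). Prefoldin and tubulin-folding cofactors as a list had 2 of 16 shared and lower and 1 shared and higher. Prefoldin subunit 5 changed by -0.40, a call that was lost on log2(FPKM + 1) (adjusted p = 0.196, limma), and tubulin-specific chaperone D-like by 0.36. Of 20 tested tubulins, 5 were shared and lower and none shared and higher. A tubulin alpha-1A chain-like gene had 133, 129.9 and 115 in LPS_T and 96.1, 112 and 103 in NOR_T, against 283, 207 and 223 in PBS. The most abundant shared alpha-tubulin had 1289, 1339.7 and 1209 in LPS_T and 1203, 1358 and 1232 in NOR_T, against 1842, 1369.7 and 1583 in PBS. The first was separated from PBS in every library, whereas PBS 2 nearly met the exosome range of the second, whose change of -0.33 was lost on log2(FPKM + 1) (adjusted p = 0.326, limma).

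In the endoplasmic reticulum, where secreted proteins fold, 16 of 33 tested folding and stress genes were called lower and 1 higher, and 4 and 1 were shared. Calnexin, protein disulfide-isomerases and other abundant members were called lower by unequal amounts in LPS_T and NOR_T. Among the shared ones, the disulfide oxidase ERO1-like alpha had 2.06, 1.47 and 1.83 in LPS_T and 3.18, 1.13 and 2.24 in NOR_T, against 8.90, 8.24 and 5.30 in PBS (-1.91 ± 0.27). DnaJ homolog C3, an inhibitor of stress kinases, changed by -0.75 and a translocon-associated subunit by -0.32, a call lost with library totals (adjusted p = 0.0842, edgeR). ERO1-like alpha and DnaJ homolog C3 were below PBS in every exosome library.

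**Figure D2:**
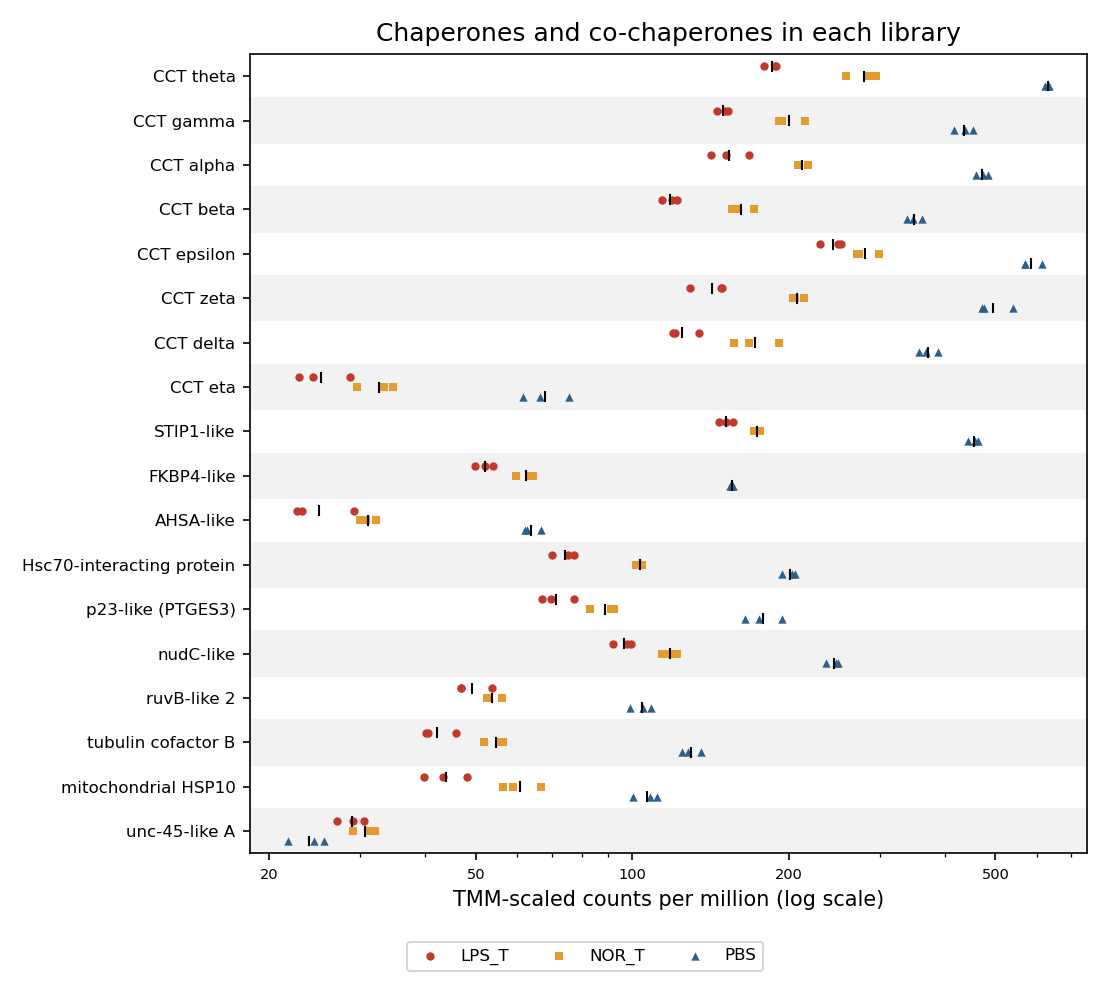
TMM-scaled CPM (horizontal log axis) of 18 chaperone genes, with 1 point per library, LPS_T above NOR_T above PBS in each row, and black ticks at the group means. In 17 rows the exosome libraries lie below all PBS libraries, and in the row of unc-45-like A they lie above them. LPS_T lies farther from PBS than NOR_T in each chaperonin row.

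Actins and their regulators were more often higher than lower. Of 64 tested actins and actin regulators, 18 were shared and higher and 3 shared and lower, against 8.05% and 7.36% of all genes tested, and 28 were called higher and 5 lower. Without PBS 1, 15 were shared and higher and 1 shared and lower. Actin-2 had 142, 156 and 142 CPM in LPS_T and 138, 157 and 148 in NOR_T, against 70.8, 54.0 and 54.0 in PBS (1.31 ± 0.09, adjusted p = 1.42e-08). Profilin-like, which delivers actin monomers to growing filaments, had 288, 296 and 278 in LPS_T and 253, 267 and 271 in NOR_T, against 149, 136 and 135 in PBS (0.98 ± 0.05). Exosome and PBS libraries did not overlap in either gene. Actin-interacting protein 1, which helps to take filaments apart, was also higher (0.67), as was the crosslinker filamin-A (0.25).

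The Arp2/3 complex, which starts branched filaments, moved as a group by small amounts. Of its 6 tested members, 5 were shared and higher, by log2 changes of 0.18 to 0.40 (a list drawn up after the values were seen). Actin-related protein 2 had 547, 554 and 540.3 in LPS_T and 522, 535 and 513 in NOR_T, against 380.0, 424 and 411 in PBS. Its lowest exosome library was above its highest PBS library. The change of actin-related protein 3, the smallest at 0.18, was lost without PBS 3 (adjusted p = 0.0917, edgeR). The interval of LPS_T minus NOR_T was -0.20 to 0.19 for Actin-2 and -0.04 to 0.17 for actin-related protein 2.

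A pair of neighbouring matrix metalloproteinase genes at high levels was shared and higher. Metalloproteinases of this family cut proteins outside the cell, such as collagen and other matrix components. Both genes are described as matrix metalloproteinase-19-like and lie on the minus strand of scaffold28041, at positions 13159 to 18867 and 24318 to 25339 of the deposited annotation, whose genome build the sources used here do not name. The first had 7988, 8746 and 7675 CPM in LPS_T and 5587, 5867 and 5773 in NOR_T, against 2506, 2654 and 2862 in PBS. The second had 2900.3, 2925 and 2738 in LPS_T and 2018, 2029 and 2075 in NOR_T, against 872, 919 and 923 in PBS. The 3 groups were separated in both genes, with LPS_T above NOR_T and NOR_T above PBS. Their log2 changes were 1.35 ± 0.06 and 1.42 ± 0.05, 2.56-fold and 2.67-fold (adjusted p = 1.27e-10 and 1.49e-11). Of 7 tested metalloproteinases of the family, a list drawn up after the values were seen, 6 were called higher but these 2 alone were shared. Of the 6, 1 moved opposite ways in LPS_T and NOR_T against PBS. The more abundant matrix metalloproteinase of scaffold61119 rose mainly in LPS_T, by 0.91, against 0.27 in NOR_T.

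Enzymes that move single carbon units through folate and methionine showed 3 shared rises and 2 shared falls among 16 tested (a list drawn up after the values were seen). Cytosolic serine hydroxymethyltransferase, which loads folate with a carbon from serine, had 80.8, 80.3 and 75.8 in LPS_T and 67.1, 62.0 and 64.1 in NOR_T, against 26.3, 26.6 and 22.5 in PBS (1.51 ± 0.08). Methylenetetrahydrofolate reductase, which commits that carbon to methionine synthesis, had 323, 338 and 309.8 in LPS_T and 255, 246 and 258 in NOR_T, against 112, 119.5 and 118 in PBS (1.29 ± 0.05). S-adenosylmethionine synthase, which makes the methyl donor of the cell, had 1582, 1656 and 1486 in LPS_T and 1269.6, 1399.7 and 1349 in NOR_T, against 838, 773 and 816 in PBS (0.84 ± 0.05). In all 3 genes every LPS_T library was above every NOR_T library and every NOR_T library was above every PBS library. The shared falls were methionine synthase reductase (-0.44) and a further serine hydroxymethyltransferase (-0.42). With library totals 3 rises and no fall of the list were shared.

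Of 151 tested antioxidant and detoxification genes, 28 were shared and lower and 14 shared and higher. On log2(FPKM + 1) these were 14 and 18. Of 5 tested genes of glutathione synthesis (a list drawn up after the values were seen), 1 was called higher and 1 lower, with a median of 0.07, and the lower one was shared. The catalytic subunit of glutamate-cysteine ligase, the rate-limiting enzyme of glutathione synthesis, had 17.7, 16.5 and 19.8 in LPS_T and 23.4, 23.9 and 23.7 in NOR_T, against 90.9, 86.7 and 91.5 in PBS. This is a log2 change of -2.12 ± 0.07, or 4.35-fold lower (adjusted p = 9.52e-12), with no overlap between groups. The regulatory subunit of the same enzyme was not called: 14.1, 13.6 and 11.2 in LPS_T and 11.9, 10.2 and 13.0 in NOR_T, against 12.3, 12.1 and 10.9 in PBS (0.07 ± 0.13, adjusted p = 0.716). S-crystallin 4, a lens protein of cephalopods that derives from glutathione transferases, changed by -1.44, and the omega class glutathione transferase by -1.09.

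Cytochrome P450 enzymes, which oxidise lipids and foreign compounds, included 13 shared and lower and 4 shared and higher genes among 53 tested (a list drawn up after the values were seen). On log2(FPKM + 1) these were 8 and 6. A cluster of genes described as Cytochrome P450 2B11 lies on scaffold40865. Its gene at positions 141938 to 156268 had 14.3, 15.8 and 15.5 in LPS_T and 14.8, 19.9 and 14.1 in NOR_T, against 59.6, 55.9 and 47.2 in PBS (-1.78 ± 0.11). Its gene at 100647 to 110296 had 8.11, 6.78 and 7.81 in LPS_T and 9.41, 9.98 and 9.10 in NOR_T, against 26.4, 26.3 and 24.1 in PBS (-1.59 ± 0.10). The gene between them, at 120695 to 129627, had up to 260.4 CPM and changed by -0.93. All exosome libraries of these 3 genes were below all PBS libraries. On another scaffold a P450 2F2-like gene changed by -0.68. A mitochondrial P450 12d1-like gene, named after an insect enzyme, was higher: 15.6, 15.2 and 16.5 in LPS_T and 10.6, 11.7 and 10.3 in NOR_T, against 2.80, 4.09 and 3.44 in PBS (1.90 ± 0.15).

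A von Hippel-Lindau-like and an EGLN1-like gene, both named for regulators of the hypoxia pathway, were lower. In animals, prolyl hydroxylases of the EGLN type mark hypoxia-inducible factor when oxygen is present, and the von Hippel-Lindau protein then takes it to degradation. The von Hippel-Lindau-like gene had 35.2, 37.3 and 32.8 in LPS_T and 35.8, 42.3 and 38.1 in NOR_T, against 95.3, 83.8 and 80.8 in PBS (-1.23 ± 0.08). The EGLN1-like hydroxylase had 67.3, 72.0 and 65.8 in LPS_T and 100.2, 87.1 and 89.4 in NOR_T, against 137, 177 and 179.7 in PBS (-1.06 ± 0.08). Both genes were separated from PBS in every exosome library. The hypoxia-inducible factor 1-alpha-like gene was not called: 1888, 1927 and 1821 in LPS_T and 1637, 1594 and 1631 in NOR_T, against 1628, 1536 and 1651 in PBS (0.12 ± 0.05, adjusted p = 0.0656, edgeR). In that gene the PBS and NOR_T libraries overlapped and LPS_T lay above both. Pyruvate dehydrogenase kinase, which restrains the entry of pyruvate into mitochondria, had 27.6, 24.8 and 27.8 in LPS_T and 27.4, 31.8 and 33.3 in NOR_T, against 57.2, 59.8 and 56.8 in PBS (-1.01 ± 0.08). Of 7 oxygen-sensing genes tested (a list drawn up after the values were seen), 3 were called lower and 2 were shared. Of 16 tested glycolysis genes, 4 were called higher and 5 lower, 1 was shared and higher and 3 shared and lower, and the median was 0.06. Hexokinases, the first step of glycolysis, fell by 0.56 and 0.81 on the log2 scale for the type 2-like and the hexokinase-1-like gene. The call of the type 2-like gene was lost on log2(FPKM + 1) (adjusted p = 0.0955, limma).

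Genes of monoamine synthesis were mostly lower. In invertebrates tyramine beta-hydroxylase makes octopamine, a counterpart of noradrenaline, and aromatic-L-amino-acid decarboxylase acts earlier in monoamine synthesis. The decarboxylase had 50.4, 44.8 and 46.4 in LPS_T and 45.5, 44.0 and 45.9 in NOR_T, against 83.8, 92.3 and 92.4 in PBS (-0.96 ± 0.07). Of the tyramine beta-hydroxylase genes, 3 changed by -2.15, -1.56 and -1.41. The largest of these changes was in a gene with 4.29, 3.62 and 2.93 in LPS_T and 2.53, 3.01 and 2.48 in NOR_T, against 11.3, 11.2 and 18.7 in PBS. A further copy at higher counts went the other way: 69.7, 77.8 and 66.4 in LPS_T and 68.4, 63.7 and 65.4 in NOR_T, against 50.3, 51.9 and 52.0 in PBS (0.41 ± 0.07). None of these genes had exosome libraries within the PBS range. A D(2) dopamine receptor-like gene was higher by 0.63, and a neuronal acetylcholine receptor alpha-3-like gene by 1.93. The 7 genes of the monoamine list were chosen after the values were seen.

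Several abundant membrane proteins were among the genes with the largest shared falls. Transmembrane protein 205-like had 328, 329 and 311 in LPS_T and 346, 368 and 347 in NOR_T, against 1330.1, 1189 and 1205 in PBS (-1.88 ± 0.04, 3.67-fold lower, adjusted p = 2.77e-13). A very low-density lipoprotein receptor-like gene, of a family that takes up lipoproteins, had 302, 312 and 291 in LPS_T and 333, 397 and 371 in NOR_T, against 1224, 1126 and 1081 in PBS (-1.78 ± 0.05). Sialin-like, named for a lysosomal exporter of sialic acid, had 61.1, 63.1 and 63.9 in LPS_T and 81.6, 87.2 and 84.4 in NOR_T, against 185, 187 and 190.5 in PBS. In each of these the PBS libraries lay far above all exosome libraries. Of 34 tested scavenger and phagocytic receptors, 8 were shared and lower and 1 shared and higher. With library totals in place of TMM, or without PBS 3, 5 and 1 were shared. The low-density lipoprotein receptor-related protein 4-like gene changed by -0.39, a call lost on log2(FPKM + 1) (adjusted p = 0.309, limma), and MEGF6, of an EGF-repeat family that includes engulfment receptors, by -1.05. Monocarboxylate transporter 12-like changed by -0.63.

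Nuclear and RNA-binding genes also stood among the shared falls. High mobility group-T-like, a DNA-bending chromatin protein, had 18.1, 17.6 and 21.2 in LPS_T and 16.1, 13.9 and 11.5 in NOR_T, against 86.2, 92.4 and 83.5 in PBS (-2.43 ± 0.10, 5.39-fold lower). The glycine-rich RNA-binding protein GRP2A-like, named after a plant protein, had 139, 132 and 137 in LPS_T and 139.5, 139 and 143 in NOR_T, against 440.1, 436 and 443 in PBS (-1.67 ± 0.04). Its LPS_T minus NOR_T interval was -0.15 to 0.06. The cwo-like gene, named after a clock repressor of flies, had 3.17, 3.81 and 4.31 in LPS_T and 7.62, 5.80 and 5.16 in NOR_T, against 17.7, 21.0 and 21.6 in PBS (-2.06 ± 0.15). Inter-alpha-trypsin inhibitor heavy chain H3-like, a matrix-binding protein, changed by -1.54, and helicase with zinc finger domain 2 by -1.39. All 5 genes were below PBS in every exosome library, which was fixed by the choice for genes picked with FPKM ranges that do not overlap.

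**Figure D3:**
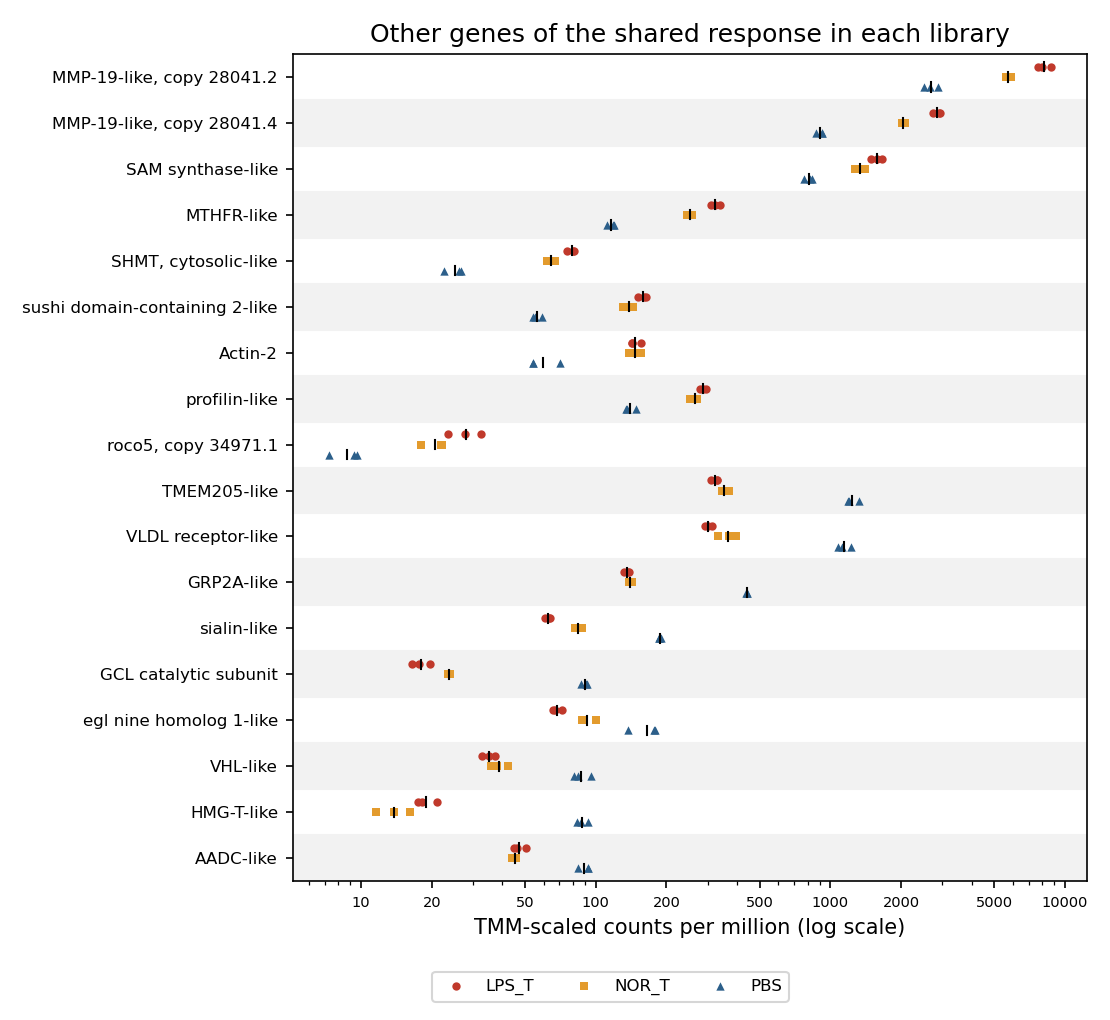
TMM-scaled CPM (horizontal log axis) of 18 further shared genes, 1 point per library and black ticks at the group means. The 9 upper rows lie above all PBS libraries in every exosome library and the 9 lower rows lie below them. For genes picked with FPKM ranges that do not overlap, this separation was fixed by the choice.

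Regulators of apoptosis moved in both directions. Inhibitors of apoptosis carry BIR domains that can bind caspases, the proteases of cell death. Of 25 tested, 6 were shared and lower and 3 shared and higher. Without LPS_T 1 these were 3 and 2, and without PBS 3 they were 6 and 1. The gene with the BIR 7-A-like description on scaffold41437 had 599, 616 and 559 in LPS_T and 669, 726 and 718 in NOR_T, against 1040.1, 953 and 936 in PBS (-0.60 ± 0.05). The abundant BIR 3-like gene of scaffold40911 had 1345, 1425 and 1340.1 in LPS_T and 1201, 1185 and 1205 in NOR_T, against 1628, 1698 and 1712 in PBS (-0.39 ± 0.04). Neither overlapped with PBS, and the call of the second was lost on log2(FPKM + 1) (adjusted p = 0.25, limma). Its neighbour, at a few CPM, changed by -1.41, and a BIR 2-like gene by -1.46.

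Among caspases and Bcl-2 family genes, 6 of 23 tested were shared and higher and 1 was shared and lower. Without PBS 1, 3 were shared and higher and 1 shared and lower. A caspase-3-like gene had 32.6, 35.7 and 34.9 in LPS_T and 39.5, 38.7 and 43.2 in NOR_T, against 25.4, 26.5 and 25.4 in PBS (0.53 ± 0.08). Its neighbour Caspase-7 changed by 0.46, and a rarer caspase-3-like gene by 1.79. The Bcl-2 protein, of a family that holds both inhibitors and promoters of cell death, was higher by 0.31, and the BAX-like promoter by 0.28, a call lost without PBS 1 (adjusted p = 0.0513, edgeR). Bax inhibitor-1, a membrane protein of the endoplasmic reticulum that opposes BAX in other animals, had 179.9, 176 and 169.5 in LPS_T and 182, 193 and 184 in NOR_T, against 261, 258 and 242 in PBS (-0.49 ± 0.05). Its exosome libraries did not reach the PBS range, though its call was lost on log2(FPKM + 1) (adjusted p = 0.0795, limma).

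Of the immune signalling lists, TNF, TRAF and death domain genes had 4 of 19 shared and lower and none shared and higher. TRAF3-like, an adaptor of TNF and Toll-like receptors, had 13.5, 12.5 and 14.4 in LPS_T and 15.6, 16.5 and 16.7 in NOR_T, against 34.5, 35.9 and 33.1 in PBS (-1.22 ± 0.09). Leaving out any 1 library left 1 gene (without PBS 1) or 2 genes of that list shared and lower, and library totals left 1. The Toll-like receptor and NF-kappa-B list had 2 shared in each direction among 13 tested, and 1 shared and higher without LPS_T 2, LPS_T 3, NOR_T 1, NOR_T 3, PBS 1 or PBS 3. NF-kappa-B inhibitor alpha-like had 18.2, 18.1 and 16.2 in LPS_T and 19.5, 22.4 and 20.8 in NOR_T, against 31.3, 36.1 and 28.9 in PBS (-0.75 ± 0.10), and toll-like receptor 4 genes changed by 0.46 and 1.78.

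Interferon-type genes were divided too, with 4 shared and higher and 3 shared and lower of 20 tested. Interferon regulatory factor 1 had 52.3, 46.7 and 47.7 in LPS_T and 42.3, 44.6 and 39.3 in NOR_T, against 75.5, 76.4 and 63.7 in PBS (-0.66 ± 0.08). The interferon-induced protein 44-like family split. On scaffold33013 a copy had 6.10, 6.69 and 6.51 in LPS_T and 7.19, 6.53 and 5.70 in NOR_T, against 1.06, 1.59 and 2.35 in PBS (1.89 ± 0.24). On scaffold36873 the most abundant of the shared copies had 77.0, 75.0 and 67.8 in LPS_T and 62.4, 71.9 and 66.5 in NOR_T, against 50.1, 39.3 and 41.0 in PBS (0.70 ± 0.09). Copies on scaffold55531 and scaffold64833 changed by -1.45 and -1.86. With a low-count copy on scaffold49157 given below, 3 copies were shared and higher and 2 shared and lower, and all 5 were separated from PBS. The RNA sensor named interferon-induced helicase C domain-containing protein 1 changed by 0.42 (adjusted p = 0.019), a call lost without NOR_T 3 (adjusted p = 0.0523) and without PBS 3 (adjusted p = 0.0666).

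Some coats and tethers of vesicle traffic were higher. Of 188 tested genes of vesicle traffic, 26 were shared and higher and 10 shared and lower, against 25 and 5 with library totals. Within a narrower list of adaptor complexes, retromer and vacuolar sorting proteins, drawn up after the values were seen, 15 of 62 were shared and higher and 1 shared and lower. VPS8, a tether of early endosomes, had 32.7, 37.5 and 35.7 in LPS_T and 35.2, 30.5 and 37.3 in NOR_T, against 23.7, 22.0 and 22.6 in PBS (0.62 ± 0.09). VPS16 and VPS18, core parts of endosomal tethers, changed by 0.44 and 0.55, and the mu-1 subunit of AP-3, an adaptor for transport to lysosomes, by 0.46. AP-1 subunits beta-1 and mu-1 changed by 0.19 and 0.27, with calls lost on log2(FPKM + 1) (adjusted p = 0.0748 and 0.0519, limma).

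Rab GTPases, the switches of these routes, had 4 of 41 tested members shared and lower (9.76%) and 2 shared and higher (4.88%). All genes tested had 7.36% and 8.05%. The list was drawn up after the values were seen, and with library totals the counts were 2 and 1. Rab-7a, of late endosomes, had 532, 511 and 508 in LPS_T and 584, 611 and 612 in NOR_T, against 737, 773 and 773 in PBS (-0.45 ± 0.04). Rab-9A-like, of transport from endosomes to the Golgi, had 43.5, 41.0 and 41.1 in LPS_T and 42.9, 45.6 and 45.3 in NOR_T, against 61.3, 62.0 and 61.5 in PBS (-0.51 ± 0.07). Both were below PBS in every exosome library, and both calls were lost on log2(FPKM + 1) (adjusted p = 0.161 and 0.0923, limma). Rab-5C-like, of early endosomes, changed by -0.28, and its call was also lost with library totals (adjusted p = 0.0943, edgeR). Rab-18-B-like changed by -3.23 at a few CPM.

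Lysosomal hydrolases and proton pump genes had 11 shared and lower and 2 shared and higher of 61 tested, and 5 and 2 with library totals. An arylsulfatase B-like gene, named for a lysosomal sulfatase, had 0.821, 0 and 0.298 in LPS_T and 0, 0.408 and 0.378 in NOR_T, against 13.7, 12.9 and 13.2 in PBS (-5.43 ± 0.53). Counts in its exosome libraries were near 0, so the fitted size depends on the prior count. Its neighbour changed by -1.78, another arylsulfatase B-like gene by -0.49, a call lost on log2(FPKM + 1) (adjusted p = 0.12, limma), and a sphingomyelin phosphodiesterase-like gene by -0.77. Lysosomal alpha-mannosidase-like, the most abundant hydrolase named here, was higher by 0.23.

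Nuclear transport genes had 9 of 47 shared and higher and 1 shared and lower. Without PBS 1 these were 7 and 2, without PBS 2 they were 4 and 2, and without PBS 3 they were 5 and 2. Nup160-like, a scaffold subunit of the nuclear pore, had 41.1, 38.2 and 38.5 in LPS_T and 38.1, 36.4 and 33.8 in NOR_T, against 28.1, 25.7 and 25.0 in PBS (0.52 ± 0.08). Of 76 ribosome biogenesis genes, 8 were called higher and 9 lower, and 5 were shared and higher, a share below that of all genes tested. None was shared and lower, but 4 were without NOR_T 2 and 2 without PBS 1, and 3 were shared and higher without LPS_T 2. Nucleolar RNA helicase 2-like, which acts in ribosomal RNA maturation, had 53.3, 54.5 and 46.6 in LPS_T and 59.6, 63.5 and 56.7 in NOR_T, against 22.8, 27.3 and 25.4 in PBS (1.13 ± 0.09), and nucleolar protein 6-like changed by 1.27. These 3 genes were above PBS in every exosome library. Of 54 proteasome genes, 6 were shared and higher, near the share of all genes tested, with 0.40 for the regulatory subunit 2.

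Cytosolic ribosomal proteins were lower by small amounts, in a count that depends on scaling and on single libraries. Of 67 tested, 12 were shared and lower and none shared and higher, with a median log2 change of -0.16. The ribosomal protein L31-like gene had 566, 577 and 529.9 in LPS_T and 553, 624 and 612 in NOR_T, against 664, 771 and 673 in PBS (-0.28 ± 0.06). Its call was lost with library totals (adjusted p = 0.162, edgeR). With library totals 1 of 67 was shared and lower, and on log2(FPKM + 1) none was. Single libraries moved the count as well: 2 without NOR_T 1, 25 without NOR_T 2, 7 without PBS 1 and 6 without PBS 2. With library totals and on log2(FPKM + 1) the median of all genes tested moved up to 0.10 and 0.15, and the ribosomal median was -0.06 and 0.01. Of 53 genes on the translation factor list, 10 were called lower and none was shared. With library totals 2 were called lower. The list was matched on words of the description and does not hold the shared, higher gene described as EEF1A1 protein, given below.

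**Figure D4:**
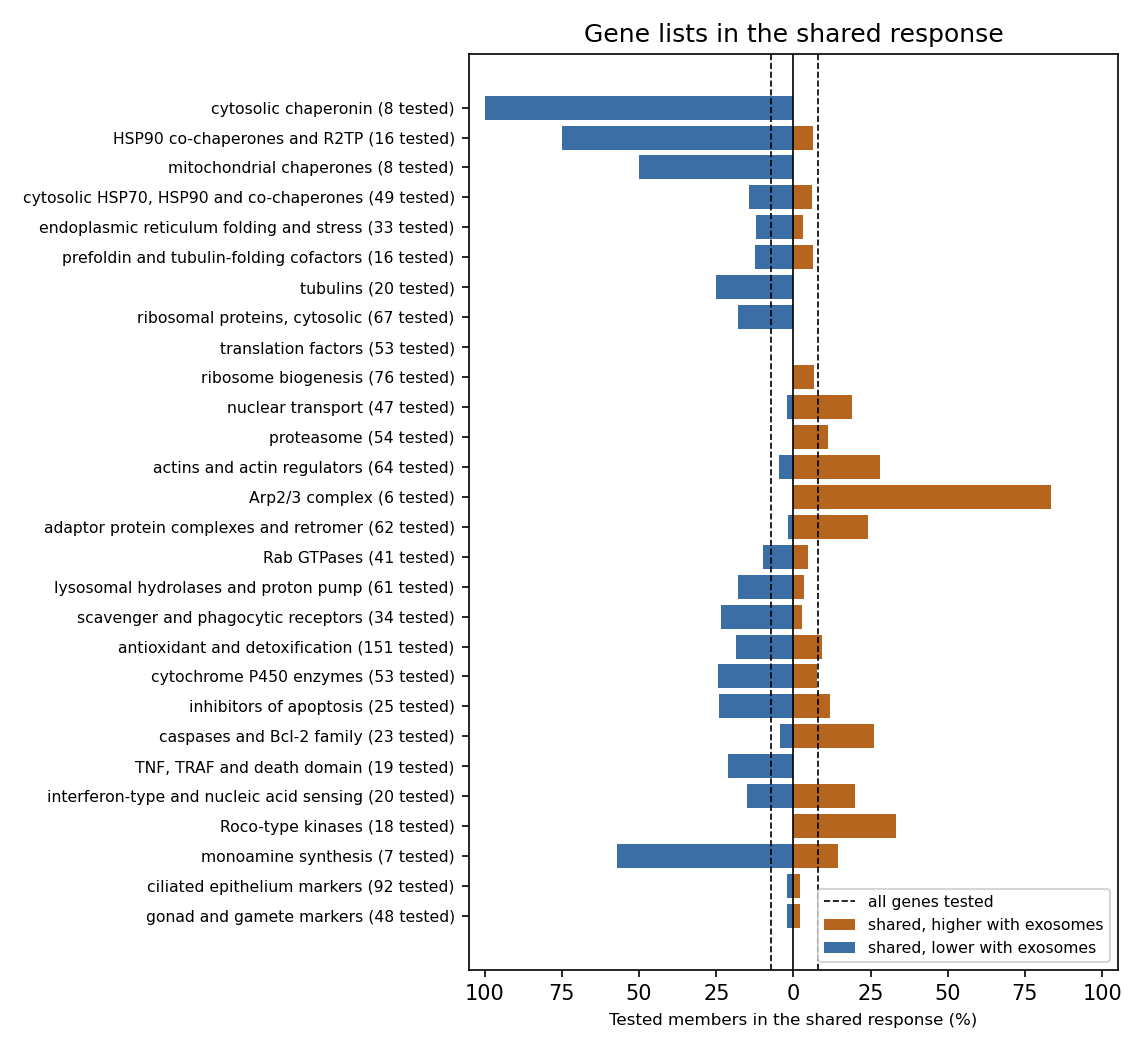
Bars give the percentage of tested members of each list that were shared and higher (right of 0) or shared and lower (left of 0), and dashed lines give the same for all 11678 genes tested, 8.05% and 7.36%. The chaperonin bar reaches 100% on the lower side, and the longest bar on the higher side is the Arp2/3 complex at 83.3% of 6 genes. The Arp2/3 list was drawn up after the values were seen, so the length of its bar depends in part on that choice. The same holds for any other list that the text marks so.

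Several kinases of the Roco type, which join a GTPase domain to a kinase domain, were higher. Of 18 tested, 11 were called higher and 6 were shared and higher, with none called lower (a list drawn up after the values were seen). The copy on scaffold34971 had 27.9, 23.4 and 32.5 in LPS_T and 18.1, 22.1 and 22.0 in NOR_T, against 7.29, 9.32 and 9.58 in PBS (1.45 ± 0.14), and that on scaffold11237 changed by 1.23. Neither overlapped with PBS. Roco genes may share reads between close copies, so the split between copies is uncertain.

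Other genes among the largest shared rises were of low or mixed level. Sushi domain-containing protein 2-like, a cell surface protein in other animals, had 161, 164 and 151 in LPS_T and 144, 131 and 141 in NOR_T, against 54.1, 58.9 and 55.3 in PBS (1.40 ± 0.06). An E3 ligase of the mind-bomb type, known for Notch ligand uptake, changed by 1.49, Krueppel-like factor 9 by 1.19, mitotic apparatus protein p62-like by 1.54 and glutamate-rich WD repeat-containing protein 1-like by 1.35. Each was above PBS in all 6 exosome libraries, which was fixed by the choice for genes picked with FPKM ranges that do not overlap.

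The gene ranked first by size was uneven between libraries. A mucin-5AC-like gene had 46.2, 47.0 and 45.8 in LPS_T and 28.2, 2.10 and 2.38 in NOR_T, against 0, 1.06 and 0.834 in PBS. A single NOR_T library carried most of the level of that group. Another 3 of the 15 largest rises had PBS 1 at 0. They were genes named for mitochondrial ATP synthase 6 (2.60) and the elongation factor EEF1A1 (2.11), and the interferon-induced protein 44-like gene of scaffold49157 (2.53). For them PBS 2 and 3 held 1.81 and 0.898, 3.49 and 3.64, and 1.64 and 0.406 CPM. All 4 genes were still called higher without PBS 1, but DESeq2 did not call the EEF1A1 gene (adjusted p = 0.0835) and gave no adjusted p for the mucin gene.

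At the limit of 0.6, the putative inhibitor of apoptosis of scaffold41437 (-1.40 in LPS_T, -0.85 in NOR_T) and serum factor response D-like (-1.49 and -0.92) lay just inside. Just outside were dynein light chain 2 (-2.35 in LPS_T, -1.38 in NOR_T) and the leukocyte elastase inhibitor-like gene (0.79 and 1.33). With a limit of 0.8 the shared genes number 873, and with 0.4 they number 2529.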

How the data were processed

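RNA of hemocytes was sequenced as poly(A)-selected, paired-end libraries without strand information, per the labels' protocols. The deposited table holds estimated counts per gene and FPKM per gene, both made by the authors, per the file headers; HISAT, StringTie and edgeR are named in the submitters' processing notes, without versions. Low estimated counts pile up at 4 and its multiples in the deposited table, so they are not independent fragments; they were rounded to whole numbers. Library totals and the weight of 2 genes in PBS 1 limit the precision at low levels.

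From these, genes that reached 1 FPKM in 3 or more libraries were fitted with edgeR 4.0.16 in R 4.3.3 (TMM scaling, quasi-likelihood test, all 9 libraries, 1 mean per group), and p-values were adjusted by the Benjamini-Hochberg method over 11678 genes. The SE is the log2 change divided by the root of F. Scripts were tested on simulated data. Alternatives were other scalings, no filter, DESeq2 1.42.0, limma 3.58.1 on log2(FPKM + pseudocount), limits of 0.4 and 0.8, a replicate block and leaving out each library. A further one asked shared genes to be called in each exosome group alone.

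Named genes were the 15 higher and 15 lower shared genes with an informative description, a mean FPKM of at least 5, ranges without overlap and the largest smaller change, the 8 chaperonin subunits, up to 3 shared genes per list (those of lowest adjusted p) and the neighbours of the limit. Other named genes, 12 further lists and the final wording of 3 lists were chosen after the values were seen. The members and lists were chosen with earlier results of these data known.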

Additional observations from a re-analysis of the deposited data

Results flagged for a closer look

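In the genes below LPS_T and NOR_T differed from each other by the test of that difference in the same fit (edgeR), although most were shared. Values are LPS_T minus NOR_T on the log2 scale. The chaperonin subunits differed by -0.59 (theta), -0.55 (zeta), -0.46 (alpha), -0.46 (delta), -0.45 (beta), -0.42 (gamma), -0.36 (eta) and -0.20 (epsilon). Other folding genes differed by -0.48 (Hsc70-interacting protein), -0.47 (mitochondrial HSP10-like), -0.37 (tubulin-folding cofactor B), -0.32 (prostaglandin E synthase 3-like), -0.31 (HSP90 ATPase activator), -0.29 (nudC-like), -0.27 (FKBP4-like) and -0.20 (stress-induced phosphoprotein 1).

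Among shared falls the difference was -0.72 for cwo-like, -0.57 for serum factor response D-like, -0.55 for the putative inhibitor of apoptosis, -0.43 for sialin-like, -0.43 for EGLN1-like, -0.40 for the glutamate-cysteine ligase catalytic subunit, -0.28 for the very low-density lipoprotein receptor-like gene, -0.25 for the BIR 7-A-like gene and -0.22 for Rab-7a. It ran the other way for high mobility group-T-like (0.45) and the BIR 3-like gene (0.20), which were lower in NOR_T.

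Among shared rises the difference was 2.07 for mucin-5AC-like, 0.61 for the mind-bomb-like ligase, 0.54 for P450 12d1-like, 0.50 and 0.48 for the matrix metalloproteinase-19-like genes, 0.47 for a flagellar dynein beta chain, 0.43 for roco5, 0.36 for methylenetetrahydrofolate reductase, 0.29 for serine hydroxymethyltransferase, 0.23 for S-adenosylmethionine synthase, 0.20 for sushi domain-containing protein 2-like and 0.14 for the Bcl-2 protein. A toll-like receptor 4 gene differed by -0.88. Of genes that were not shared, dynein light chain 2 differed by -0.97, the matrix metalloproteinase of scaffold61119 by 0.64 and hypoxia-inducible factor 1-alpha-like by 0.21.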

How the results depend on the processing

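Counts moved with the limit, the scaling and the test. With library totals 904 genes were called lower and 454 were shared and lower. On log2(FPKM + 1), limma called 2107 genes, 564 of them lower, with 320 shared and lower and 198 shared at 2-fold or more. On log2(FPKM + 0.1) these were 1841 called, 497 lower, 1127 shared and 273 shared and lower. Higher genes made up 49.3% of calls with TMM, 64.1% with library totals, and 73.2% and 73% on FPKM, where the median log2 change of all genes tested was 0.10, 0.15 and 0.18, so changes are best read relative to it. A limit of 0.8 left 873 shared genes, 475 higher and 398 lower, with 174 at 2-fold or more. Without a filter 570 were shared at 2-fold or more. The cause was not tested.

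Leaving out 1 library gave 2889 to 3289 called genes (1457 to 1627 higher, 1432 to 1662 lower), 1580 to 1766 shared (814 to 920 higher, 752 to 846 lower) and 324 to 400 at 2-fold or more. Replicate numbers are shared between groups, but same-numbered libraries did not deviate together (correlations of -0.0248 to 0.0797). With a replicate block 3331 genes were called (1662 higher, 1669 lower), 1748 shared (916 higher, 832 lower) and 349 at 2-fold or more, and 1691 of the 1799 were among them. Of 146 genes named or considered for the text, 122 lost no call in any setting and none reversed. This follows the call in the mean contrast, not whether a gene stayed shared. Many of these genes were picked by low adjusted p or ranges without overlap, which sets the count in part. Of all 1799 shared genes, 1065 were still called and 1030 still shared on log2(FPKM + 1). On log2(FPKM + 0.1) these were 978 and 948. The hypoxia-inducible factor 1-alpha-like gene was called by DESeq2 (0.11, adjusted p = 0.026). Shallow PBS 1 limits low-count genes most.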

Other observations

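Of 8 tested hemocyte markers, 3 were called higher and 3 lower, and 2 were shared and higher and 2 shared and lower. Peroxidasin, a matrix peroxidase made by insect hemocytes, had 252, 259 and 245 CPM in LPS_T and 221, 226 and 233 in NOR_T, against 143, 144 and 159 in PBS (0.69 ± 0.05). A GATA-binding factor, of a family that directs blood cell formation, changed by 0.44, and a rarer allograft inflammatory factor 1-like gene by -0.74. An abundant laccase-3-like marker had 493, 504 and 507 FPKM in LPS_T and 685, 625 and 661 FPKM in NOR_T, against 604, 913 and 947 FPKM in PBS 1, 2 and 3. The summed level of all 35 markers was 4890 to 5060 FPKM in LPS_T, 6120 to 6190 FPKM in NOR_T and 4110 to 5800 FPKM in PBS libraries.

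Further lists had these counts, to be read beside 8.05% shared and higher and 7.36% shared and lower of all genes tested. The shares were 6.67% and 7.18% for solute carriers and transporters, 7.69% each for aminoacyl-tRNA synthetases, and 8.54% and 4.88% for spliceosome genes. Of 195 tested solute carriers and transporters, 13 were shared and higher and 14 shared and lower, against 13 and 9 with library totals. Of 82 spliceosome genes, 10 were called higher and 20 lower (10 and 3 with library totals), and 7 were shared and higher and 4 shared and lower (2 shared and lower without LPS_T 3 or NOR_T 1, and 7 without NOR_T 2). Of 59 genes of the respiratory chain and ATP synthase, 2 were called higher and 8 lower, and 2 were shared and higher and 6 shared and lower. Only 2 or 3 were shared and lower without LPS_T 1, LPS_T 2, LPS_T 3, NOR_T 1, NOR_T 3 or PBS 1, and 2 with library totals. Of 97 cell cycle and DNA replication genes, 6 were shared and higher (3 without NOR_T 2) and 2 shared and lower (between 1 and 3 on leaving out single libraries). Of 39 aminoacyl-tRNA synthetases, 3 were shared in each direction, between 0 and 3 higher and between 0 and 4 lower on leaving out single libraries. Of 36 G protein-coupled receptors, 1 was shared and higher and 4 shared and lower, between 1 and 2 higher and between 2 and 5 lower on leaving out single libraries. Of 30 lectin, C1q and fibrinogen-related genes, none was shared and higher and 2 were shared and lower, between 0 and 2 higher and between 0 and 3 lower on leaving out single libraries. Of 14 stress-inducible and immediate early genes none was shared, although 4 were called higher and 2 lower. Of 30 mantle and mucous epithelium markers, 2 were shared and higher and 4 shared and lower, against 1 and 2 without NOR_T 1, 1 and 3 without PBS 3, and 3 and 1 with library totals. Of 22 nerve markers, 3 were shared and higher.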
